A study of Mus musculus with 2 samples.

Results

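Droplet barcodes with 500 to 5000 detected genes and more than 10% of their UMIs on mitochondrially encoded genes were examined in 2 single-cell RNA-seq libraries of mouse tumor myeloid cells. They are called high-mitochondrial barcodes here. A quality filter of this kind removes them before cells are analyzed, and the barcodes it keeps, with 500 to 5000 genes and at most 10% mitochondrial UMIs, are called retained. Of 7951 barcodes in the deposited matrices, 6079 had 500 to 5000 genes, and 892 of those were high-mitochondrial. There were 420 among 2146 barcodes in 4T1P and 472 among 3933 in 4T1M, which is 19.6% (95% exact binomial interval 17.9 to 21.3) and 12% (11 to 13.1). The members were chosen by their measured mitochondrial percentage and gene number, so what follows is a description of them.

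Both libraries hold GR1+ cells, taken with magnetic beads and a PE-labeled antibody against Ly-6G and Ly-6C, from 4T1 mammary carcinomas grown in the mammary fat pad of BALB/c mice aged 6 to 8 weeks. 4T1P is the parental line, whose tumors do not respond to anti-PD1, and 4T1M is a mutagenized clone of it whose tumors do. The tumors were taken before any treatment. Each library pools 5 mice according to the series' design text, although another statement of the study gives a different number. With 1 library per tumor line there is no replicate and no test between the lines. Every difference between 4T1P and 4T1M is a difference between 2 libraries, and every interval below covers counting error only. The libraries held 21855657 and 24303957 UMIs, and 5 barcode sequences occurred in both.

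Mitochondria carry their own small genome, which encodes 13 subunits of the respiratory chain and ATP synthase along with the rRNAs and tRNAs that translate them. All other mitochondrial proteins are encoded in the nucleus. A droplet's mitochondrial percentage depends both on mitochondrial transcripts and on the cytosolic and nuclear RNA captured beside them. Neutrophils, the main cells that a GR1 antibody selects, hold few mitochondria and little RNA.

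The high-mitochondrial barcodes spread over a wide range. In 4T1P their mitochondrial percentage had a lowest value of 10.0%, a median of 23.1% and a highest value of 85.6%. In 4T1M these values were 10.0%, 18.5% and 67.7%. Retained barcodes had medians of 3.71% and 2.28%. The limits fix much of how the groups compare in depth, since members had to exceed 10% mitochondrial UMIs and both groups had to have at least 500 genes. A further 352 barcodes in 4T1P and 430 in 4T1M were above 10% with fewer than 500 genes and are not members. The members' median was 1063.5 mitochondrial UMIs in 4T1P, against 142.5 in retained barcodes, and 673.5 against 73 in 4T1M. Their median count of other UMIs was 2917 against 3763.5 in 4T1P and 2230.5 against 3109 in 4T1M, and their median number of detected genes was 1112 against 1239 and 900.5 against 1041. The members held 15% and 9.25% of the UMIs of all barcodes in the gene range, but 47.2% and 37.2% of the mitochondrial UMIs.

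**Figure D1:**
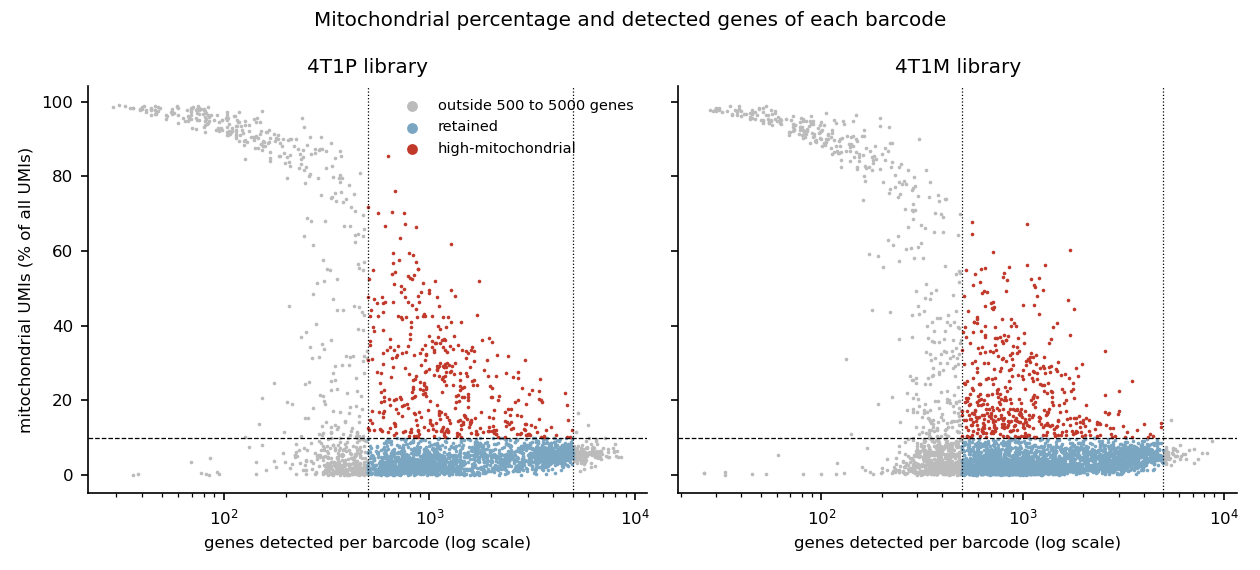
Mitochondrial percentage of UMIs against detected genes (logarithmic axis) for every barcode of 4T1P and 4T1M, with dotted lines at 500 and 5000 genes and a dashed line at 10%. Red points are the 420 and 472 high-mitochondrial barcodes, blue points the 1726 and 3461 retained barcodes, and gray points lie outside the gene range; the red points reach down to the limit of 10% with no empty band between red and blue.

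All 13 mitochondrial mRNAs were detected in the members of both libraries. mt-Co3, a subunit of cytochrome c oxidase, was the most abundant, with 22.1% of the members' mitochondrial UMIs in 4T1P and 21.6% in 4T1M. mt-Co1 (chrM:5328-6872, plus strand), the catalytic subunit of the same enzyme, took 19.3% and 19.2%, against 21.5% and 22.2% in retained barcodes. mt-Cytb (chrM:14145-15288, plus strand), the cytochrome b of complex III, took 8.01% and 7.84% against 6.89% and 6.65%. mt-Nd1 (chrM:2751-3707, plus strand), a complex I subunit, took 5.67% and 5.84% against 5.58% and 5.41%. mt-Co1 alone made up 4.65% and 4.19% of all UMIs in members, against 1.02% and 0.835% in retained barcodes. The makeup of the mitochondrial RNA was thus close to that of retained barcodes, although not identical. The log2 ratio of members over retained barcodes, within mitochondrial UMIs, was −0.15 and −0.21 for mt-Co1, 0.22 and 0.24 for mt-Cytb and 0.02 and 0.11 for mt-Nd1. mt-Nd6 (chrM:13552-14070), the complex I subunit encoded on the minus strand, had 0.40 (0.28 to 0.53) in 4T1P and 0.36 (0.24 to 0.48) in 4T1M.

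Just inside and just outside the limit the barcodes were not alike in every measure. In 4T1P, 48 barcodes lay between 9% and 10% and 30 between 10% and 11%. In 4T1M these numbers were 46 and 43. On either side of the limit the median number of detected genes was 2114 and 1904 in 4T1P and 1243 and 1142 in 4T1M. Levels are given as CPM, counts of a gene scaled to a fixed total of non-mitochondrial UMIs. Malat1, a nuclear long noncoding RNA, stood at 20723 and 26710 CPM in 4T1P and at 28411 and 21460 in 4T1M, so that the side with the higher level was not the same in both libraries. The neutrophil gene S100a8 was lower above the limit in both, at 13033 CPM below it and 5381 above it in 4T1P and at 30501 and 16852 in 4T1M. Neutrophil-like barcodes, defined below, were 33.3% just under the limit and 26.7% just over it in 4T1P and 58.7% and 41.9% in 4T1M. The rRNA-overlapping features described below went from 44314 to 50851 CPM and from 20937 to 23605.

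To describe which cells the members came from, all 6079 barcodes in the gene range were clustered without the mitochondrial genes, and clusters were named from marker lists. Neutrophil-like barcodes and an unnamed cluster described below together held most of the members. Neutrophil-like barcodes were 154 of the 420 members in 4T1P, or 36.7% (32 to 41.5), against 42.4% (40.1 to 44.8) of retained barcodes. In 4T1M they were 233 of 472 members, or 49.4% (44.8 to 54.0), against 63.6% (62.0 to 65.2). Read the other way, 17.4% of the 886 neutrophil-like barcodes of 4T1P and 9.57% of the 2435 of 4T1M were above the limit. The neutrophil-like share of members was between 36.2% and 37.1% in 4T1P and between 47.7% and 50.2% in 4T1M with the mitochondrial percentage regressed out, with another clustering method, or when each member took the class of its 20 nearest retained barcodes.

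The share of macrophage-like barcodes depended on where that cluster and a further unnamed cluster were placed, since the macrophage list was the closest to both. In the named clusters alone, they were 17.4% of members (73 barcodes, 13.9 to 21.4) against 34.4% of retained barcodes in 4T1P and 8.90% (42 barcodes, 6.49 to 11.8) against 21.5% in 4T1M. With the rRNA-led cluster, as the first is called below, they were 52.6% (47.7 to 57.5) against 35.1% and 37.1% (32.7 to 41.6) against 22.3%. With the further cluster they were 22.4% against 49.1% and 16.7% against 31.5%, and with both 57.6% (52.7 to 62.4) against 49.8% and 44.9% (40.4 to 49.5) against 32.3%. The Leiden clustering gave the counterpart of the rRNA-led cluster the macrophage name, at 53.3% of members against 35.1% and 40.04% against 23.9%. No direction can therefore be given for macrophages. The named macrophage-like clusters differed from one another. The cluster led by Thbs1 and Mmp12, genes of a secreted matrix protein and a macrophage elastase, had 8 members among 202 barcodes (3.96%) in 4T1P and 9 among 310 (2.90%) in 4T1M. The cluster led by Lyve1 and Cd163, markers of resident perivascular macrophages, had 17 among 100 and 7 among 41 (17.1%). Among neutrophil-like clusters, the one led by Camp and Ngp, granule genes of immature neutrophils, had 20 members among 132 barcodes (15.2%) in 4T1P and 20 among 303 (6.60%) in 4T1M. The one led by interferon-induced Ifit genes had 12 among 51 (23.5%) and 25 among 269 (9.29%).

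A single cluster was made up almost entirely of members. It held 160 barcodes in each library, of which 148 (92.5%) in 4T1P and 133 (83.1%) in 4T1M were high-mitochondrial, and it took 35.2% (30.7 to 40.0) and 28.2% (24.2 to 32.5) of all members but 0.695% and 0.780% of retained barcodes. Its leading genes by fold included Gm42418, Gm26917 and Lars2 beside hemoglobin genes, so it was left without a cell type name, although 12 macrophage markers were detected in it, and is called the rRNA-led cluster, since Gm42418 and Gm26917 lie over an rRNA repeat. Its members held 4 and 5 UMIs of the erythroid marker list in all. It was formed from the same features that are compared below, so its share is no separate evidence about them. After thinning to 500 non-mitochondrial UMIs, 35.8% of its members in 4T1P had a C1qa UMI, 17.6% a Csf1r UMI, 19.6% an S100a8 UMI and 25.7% an S100a9 UMI. In 4T1M these shares were 28.6%, 19.5%, 27.1% and 39.1%, so that C1qa was the most frequent of the 4 in 4T1P and S100a9 in 4T1M. T or NK-like barcodes, which should lack all 4, had C1qa in 2.47% and 2.75%, Csf1r in none, S100a8 in 1.23% and 10.1% and S100a9 in 7.41% and 14.7%.

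The other named classes were small. T or NK-like barcodes had 7 members among 81 in 4T1P and 13 among 109 in 4T1M, and B or plasma-like barcodes 6 among 40 and 3 among 31. A small cluster closest to the epithelial markers had 11 members among 30 barcodes (36.7%) in 4T1P and 9 among 17 (52.9%) in 4T1M. Keratin 19 was among its leading genes, but more of them were stromal or mural genes such as Col5a2, Rgs5 and Gja4, so it was also left without a name. The further unnamed cluster, whose 10 leading genes mixed antibody and hemoglobin genes with Cxcl9 and Aif1, was larger. It had 21 members among 275 barcodes in 4T1P and 37 among 382 in 4T1M, which is 5.0% (3.12 to 7.54) of members against 14.7% (13.1 to 16.5) of retained barcodes and 7.84% (5.58 to 10.6) against 9.97% (8.99 to 11.01).

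**Figure D2:**
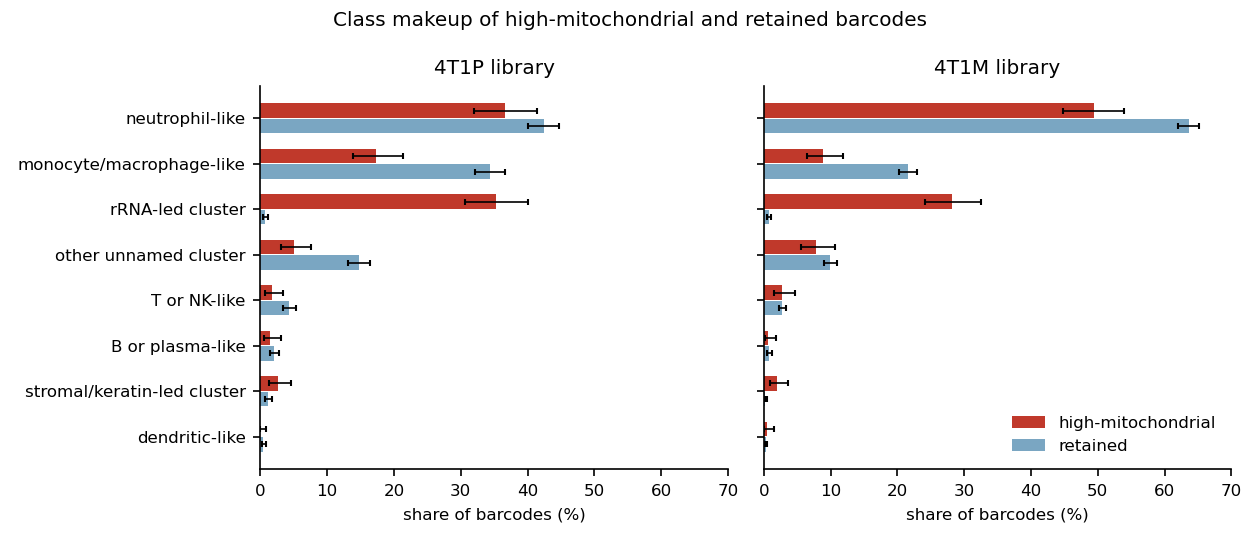
Share of high-mitochondrial and of retained barcodes that fell in each class, in percent, for 4T1P and 4T1M, with 95% exact binomial intervals. The rRNA-led cluster holds 35.2% and 28.2% of high-mitochondrial barcodes and under 1% of retained ones, while neutrophil-like barcodes, and macrophage-like barcodes counted without that cluster, take a smaller share of the high-mitochondrial group, with overlapping intervals for neutrophil-like barcodes in 4T1P.

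Lineage markers were also compared without clusters, as the share of barcodes with a UMI. Each barcode was thinned to 500 non-mitochondrial UMIs, and no barcode had fewer. S100a8 and S100a9 encode the calprotectin subunits that fill neutrophil cytoplasm. S100a8 had a UMI in 43.8% (39.0 to 48.7) of members and 44.8% of retained barcodes in 4T1P, and in 60.0% (55.4 to 64.4) and 63.5% in 4T1M. S100a9 was at 47.6% and 47.9% in 4T1P and at 66.5% and 67.6% in 4T1M. Csf3r, the G-CSF receptor, was at 14.5% and 14.7% in 4T1P and at 20.1% and 23.1% in 4T1M. For these neutrophil genes the retained share lay within the members' interval in both libraries at this depth. At 1000 UMIs in 4T1M this did not hold for S100a9, at 79.5% (75.4 to 83.1) of members and 73.3% of retained barcodes, nor for Csf3r, at 32.9% (28.5 to 37.5) and 38.3%. In T or NK-like barcodes, which should lack them, S100a8 was found after thinning to 500 UMIs in 1.23% and 10.1%, S100a9 in 7.41% and 14.7% and Csf3r in none. Before thinning, at median depths of 5284 and 4853 non-mitochondrial UMIs, these shares were 27.2% and 51.4% for S100a8, 38.3% and 71.6% for S100a9 and 0% and 0.917% for Csf3r.

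C1qa, a complement subunit made by macrophages, had a UMI in 31.0% of members and 31.7% of retained barcodes in 4T1P and in 23.5% and 19.99% in 4T1M, against 2.47% and 2.75% of T or NK-like barcodes. Csf1r, the M-CSF receptor, was at 12.4% (9.39 to 15.9) and 10.4% in 4T1P and at 10.4% (7.78 to 13.5) and 6.85% (6.03 to 7.74) in 4T1M. At 1000 UMIs the retained share lay below the members' interval for C1qa in 4T1M, at 32.4% (28.1 to 37) and 25.6%, and for Csf1r in both libraries, at 22.9% (18.9 to 27.4) and 17.5% in 4T1P and 17.6% (14.1 to 21.5) and 12.8% in 4T1M. Cd3g, a T cell receptor chain, was at 0.476% and 1.68% in 4T1P and at 0.424% and 0.722% in 4T1M. Cd79a, of the B cell receptor, was at 0.714% and 1.33% and at 0.847% and 0.405%. Krt8, a keratin of epithelial cells, was at 1.19% and 0.463% and at 0.636% and 0.347%. The last 3 markers rest on at most 5 thinned member barcodes each. Without thinning, which leaves the lower depth of members in place, the member and retained shares in 4T1P were 67.4% and 69.8% for S100a8, 35.5% and 44.0% for Csf3r and 55.0% and 49.8% for C1qa. In 4T1M they were 79.4% and 87.1% for S100a8, 46.0% and 60.8% for Csf3r and 44.9% and 36.4% for C1qa. T or NK-like barcodes had C1qa in 17.3% and 15.6% without thinning, beside the shares of S100a8 and Csf3r given above, and the part of free RNA in the unthinned shares was not tested.

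Barcodes with both a neutrophil marker (S100a8 or S100a9) and a macrophage marker (C1qa or Csf1r) were 9.76% of members and 9.44% of retained barcodes in 4T1P. In 4T1M they were 15.5% (12.3 to 19.0) and 10.5% (9.49 to 11.6). Barcodes with neither were 21.2% and 21.8% in 4T1P and 14.8% and 14.3% in 4T1M. No doublets were removed, and the part of doublets or free RNA in the double-marked barcodes was not tested.

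For expression, UMIs were summed over members and over retained barcodes of a library, scaled to CPM of non-mitochondrial UMIs, and compared as a log2 ratio. Genes past 2-fold were counted as higher or lower. Of 12760 genes compared in 4T1P, 1200 (9.40%) were higher and 818 (6.41%) lower in members. Of 13085 in 4T1M, 1141 (8.72%) were higher and 730 (5.58%) lower. Of the 12392 compared in both, 359 (2.90%) were higher and 129 (1.04%) lower in both libraries. Most of these had few UMIs, and among the 1463 genes of at least 100 CPM, 7 were higher and 6 lower in both. The median log2 ratio over all genes was 0.07 in 4T1P and 0.08 in 4T1M. Of the 12392 genes, 39.6% had ratios above 0 in both libraries and 30.5% below 0 in both, and the counts of that kind below are to be read beside these shares. In these sums, another mix of cell classes and another level per cell cannot be told apart.

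Among the 7 abundant genes that were higher, the largest ratios belonged to features that lie over the ribosomal RNA repeat of chromosome 17. Gm42418 (mm10, chr17:39846958-39848788, plus strand) is annotated as a long noncoding gene but overlaps the repeat. It stood at 81811 CPM in members and 15146 in retained barcodes of 4T1P and at 55722 and 9861 in 4T1M, log2 ratios of 2.43 and 2.5. Gm26917 (chr17:39843013-39846341, plus strand), beside it, was at 787 and 146 CPM and at 672 and 117, ratios of 2.43 (2.32 to 2.53) and 2.52 (2.41 to 2.63). AY036118 (chr17:39847113-39848035, minus strand) lies within Gm42418 on the opposite strand and had ratios of 0.93 and 1.19. How reads were divided among these features was not tested. The difference reached well beyond a few barcodes, since the median barcode had 2.02% of its non-mitochondrial UMIs on these features among members and 0.441% among retained barcodes in 4T1P, and 1.34% and 0.393% in 4T1M. The highest member had 75.6% and 72.9%.

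The rRNA-led cluster carried much of it. That cluster was taken as the one with the highest level of these features, so its high level follows from the choice. Its members stood at 222545 CPM for the rRNA-overlapping features in 4T1P and 207170 in 4T1M, and the other members at 34259 and 18806, against 15781 and 10262 in retained barcodes. With the rRNA-led members left out, the median ratio of these features was 1.13 and 0.87. Here and below, only the members of that cluster were left out, and its 12 and 27 retained barcodes stayed among the retained.

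Gm20594, on chromosome 6, was the next abundant gene, at 239 CPM in members and 54.0 in retained barcodes of 4T1P and at 256 and 55.4 in 4T1M, ratios of 2.14 (1.96 to 2.32) and 2.21 (2.04 to 2.38). It had a UMI in 51.0% of members and 27.2% of retained barcodes in 4T1P and in 46.6% and 23.0% in 4T1M. Its sequence is shown because a script found that part of it equals a mitochondrial rRNA gene. The annotation (GENCODE, GRCm38) gives a single exon of 449 bases, chr6:79817916-79818364 on the plus strand, labeled protein coding. Of its 425 stretches of 25 bases, 61 occur in mt-Rnr2, the mitochondrial 16S rRNA gene, on the same strand, and they cover 35.0% of the transcript. The deposited matrices list 32285 features, and mt-Rnr1 and mt-Rnr2 are not among them. The coding part from transcript base 348 to 446, chr6:79818263-79818361, reads 5′ to 3′ as follows, with the 65 bases identical to mt-Rnr2 in capitals (bases 368 to 432).
Gm20594: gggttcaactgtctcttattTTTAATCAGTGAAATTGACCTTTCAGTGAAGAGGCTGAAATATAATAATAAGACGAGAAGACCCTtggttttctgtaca
Gm42418, Gm26917, AY036118, Lars2, Kcnq1ot1, Mki67, Xist and Malat1 share no stretch of 25 bases with either mitochondrial rRNA gene. The shared bases say where reads could have come from and not where they did.

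Lars2, the leucyl-tRNA synthetase of mitochondria, was at 679 CPM in members and 210 in retained barcodes of 4T1P and at 425 and 148 in 4T1M, ratios of 1.70 (1.60 to 1.80) and 1.53 (1.40 to 1.65). The other abundant genes past 2-fold were Kcnq1ot1, an imprinted nuclear antisense RNA, with ratios of 1.31 and 1.38, Xist, the RNA that coats the inactive X chromosome, with 1.07 and 1.03, and the proliferation gene Mki67 with 1.33 and 1.04. For Mki67, 5 barcodes held 34.5% and 25.1% of the members' UMIs, and its ratio within neutrophil-like barcodes was −0.78 and 0.11. Kcnq1ot1 had only 4 and 28 UMIs in neutrophil-like members. In neutrophil-like barcodes of 4T1P, Lars2 stood at 129, 149 and 147 CPM with up to 2%, 2% to 5% and 5% to 10% mitochondrial UMIs. At 10% to 15%, 15% to 25% and 25% to 50% it stood at 109, 142 and 291. In 4T1M these levels were 112, 120 and 172, then 206, 170 and 151. The 10 barcodes above 50% in each library stood at 549 and 350.

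Among RNAs that stay in the nucleus, all 9 compared genes of the nuclear-retained list had ratios above 0 in both libraries, and 3 were past 2-fold in both. The list's median was 1.07 in 4T1P and 0.77 in 4T1M. Malat1 was at 38762 CPM in members and 19551 in retained barcodes of 4T1P and at 39130 and 24012 in 4T1M, ratios of 0.99 and 0.70. Neat1, the scaffold of nuclear paraspeckles, was at 2571 and 1414 CPM and at 2508 and 1698, ratios of 0.86 and 0.56. The list stood at 70834 and 73771 CPM in rRNA-led members and at 32731 and 35729 in the others, against 21600 and 26586 in retained barcodes. Without the rRNA-led members its median was 0.62 and 0.45.

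mRNAs of the translation and respiration machinery had ratios on the other side of 0. Of 84 cytosolic ribosomal protein genes, 80 had ratios below 0 in both libraries and none was past 2-fold in both, with medians of −0.66 and −0.42. Their summed level was 83736 CPM in members and 130543 in retained barcodes of 4T1P and 78900 and 104506 in 4T1M. Of 75 nuclear genes for respiratory chain subunits, 74 were below 0 in both, with medians of −0.64 and −0.40. None of the 75 was past 2-fold lower in both. Cox4i1, a nuclear subunit of the complex that mt-Co1 belongs to, had ratios of −0.47 and −0.41. Mitochondrial ribosomal proteins had medians of −0.51 and −0.32, with 59 of 75 below 0 in both. Of 13 abundant cytosolic mRNAs, 12 were below 0 in both, with medians of −0.63 and −0.42, among them Eef1a1, the translation elongation factor (−0.85 and −0.63), and Actb, cytoskeletal actin (−0.35 and −0.31).

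These levels were not the same across the mitochondrial range. In 4T1P the rRNA-overlapping features were at 11702, 10788 and 21419 CPM in barcodes with up to 2%, 2% to 5% and 5% to 10% mitochondrial UMIs, and at 69563, 95336, 88615 and 106031 at 10% to 15%, 15% to 25%, 25% to 50% and above 50%. In 4T1M they were at 7076, 8442 and 15803 below the limit and at 40864, 75553, 70499 and 23179 above it. The level was thus already higher in the range just under the limit, and in 4T1M the 21 barcodes above 50% stood lower again. Malat1 was at 21162 CPM at up to 2%, 17232 at 5% to 10% and 51427 at 25% to 50% in 4T1P. In 4T1M it was at 29615, 18203 and 57142. Ribosomal protein genes did not change in one direction. In 4T1P they were at 101042 CPM at up to 2%, 147986 at 5% to 10% and 55616 at 25% to 50%, and in 4T1M at 61203, 146561 and 50523. Between 15% and 50% the rRNA-led cluster held 26.4% and 51.6% of members in the successive ranges in 4T1P and 30.0% and 46.7% in 4T1M.

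**Figure D3:**
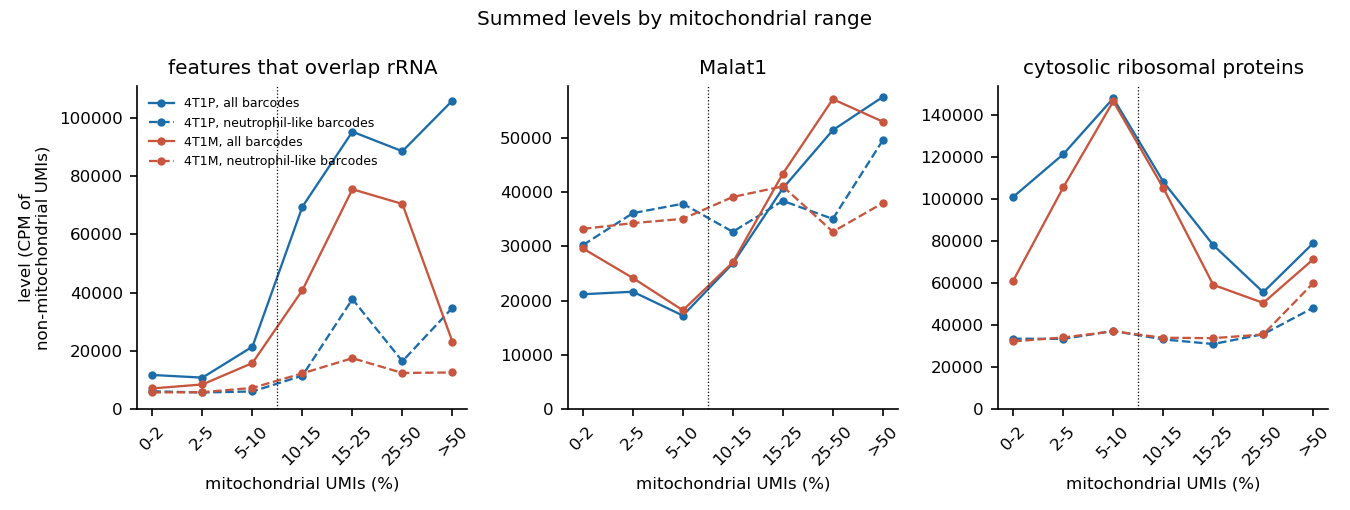
Summed level, in CPM of non-mitochondrial UMIs, of rRNA-overlapping features, Malat1 and ribosomal protein genes in 7 ranges of mitochondrial percentage, for all barcodes (solid) and neutrophil-like barcodes (dashed) of 4T1P and 4T1M. Over all barcodes, rRNA-overlapping features are higher in every range above 10% than below it and Malat1 in every range above 15%, while ribosomal protein genes peak at 5% to 10%; up to 50%, the dashed lines stay between 30226 and 41064 for Malat1 and between 30947 and 37193 for ribosomal protein genes, and their last points rest on 10 barcodes in each library.

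Stress genes did not differ as a block. None of the immediate early, integrated stress, oxidative stress or p53 lists had a gene past 2-fold in the same direction in both libraries. Of 14 immediate early genes, 6 had ratios above 0 in both and 5 below 0 in both, with medians of −0.04 and 0.07. Fosb, an AP-1 subunit, had 0.58 and 0.40 and Jun 0.46 and 0.27, while Fos had −0.29 and −0.35. The integrated stress and unfolded protein list split 6 above and 5 below, with medians of 0.03 and 0.07; Ppp1r15a, which restores translation after stress, had 0.51 and 0.20 and Atf4, the response's main transcription factor, 0.05 and 0.15. Oxidative stress genes had medians of 0.04 and −0.09, with the heme-degrading Hmox1 at −0.13 and −0.54. p53 and apoptosis genes had medians of 0.19 and 0.00.

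Heat shock genes, which cell isolation can induce, had medians of −0.16 and −0.25, with 8 of 12 below 0 in both. The inducible Hspa1a had −0.03 and −0.20, Hspa8 −0.28 and −0.35, and Hsph1 0.45 and 0.48. Hspb1 had −1.68 and −1.05 but only 9 and 7 UMIs in members. Mitophagy genes had medians of −0.15 and −0.11 and genes that maintain mitochondrial DNA and RNA −0.09 and −0.20. In the latter list Tfam, which packages mitochondrial DNA, had −0.50 and −0.59, and Lrpprc, which stabilizes mitochondrial mRNAs, 0.52 and −0.02. The median of the upkeep list was below 0 in both libraries, and none of its genes was past 2-fold in both.

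Interferon-stimulated genes had medians of 0.32 and 0.15, with 10 of 13 above 0 in both. Rsad2, an antiviral enzyme, had 0.89 and 0.28 and Isg15, a ubiquitin-like protein, 0.20 and 0.17. Inflammatory cytokine genes had medians of −0.19 and −0.10, with Il1b at −0.12 and −0.11. Glycolysis and hypoxia genes had −0.15 and −0.13, with 11 of 15 below 0 in both.

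Markers of the cell classes had the following levels. The macrophage list was below 0 for 13 of 14 genes in both libraries, with medians of −0.50 and −0.35, and Apoe, a lipid carrier, had −0.34 and −0.29. The median of 4T1M was 0.09 when each barcode was weighted equally. The neutrophil list had medians of 0.38 and 0.03, which were −0.35 and −0.43 with equal weights. S100a8 was at 16431 and 13797 CPM in 4T1P and at 17810 and 20777 in 4T1M (0.25 and −0.22). Csf3r was at 327 and 185 and at 496 and 388 (0.82 and 0.36). The direction for neutrophil markers thus depended on the gene and on the weight given to large barcodes.

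The epithelial list was above 0 for all 5 genes compared in both libraries, with medians of 2.30 and 0.67. The 4T1M median is over 8 genes, of which 1 was below 0, at −1.56. Krt8 was at 59.4 CPM in members and 7.95 in retained barcodes of 4T1P and at 16.9 and 11.1 in 4T1M, and 5 barcodes held 81.6% and 61.5% of its 103 and 26 member UMIs. T or NK cell markers had medians of −1.60 and −0.56, with 7 of 9 below 0 in both, and Cd3g (−2.04 and −0.91) had 15 and 16 member UMIs. B or plasma cell markers had −1.51 and −0.25. The erythroid list was 9.22 CPM in members and 581 in retained barcodes in 4T1P and 8.45 and 478 in 4T1M.

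Lower genes of at least 100 CPM were led by 2 that a few retained barcodes dominated. Hbb-bs, a hemoglobin chain, had ratios of −5.88 and −5.33, but 5 retained barcodes held 99.1% and 92.4% of the retained UMIs, and the share of barcodes with a UMI was 2.38% in members and 2.72% in retained barcodes of 4T1P and 2.54% and 2.57% in 4T1M. Igkc, an antibody light chain, had −5.13 and −3.17, with 87.3% and 95.5% of the retained UMIs in 5 barcodes. The other 4 were Fabp5, a fatty acid carrier (−1.70 and −1.52), Cxcl1, a neutrophil chemokine (−1.45 and −1.56), and the calcium-binding S100a10 (−1.35 and −1.31) and S100a4 (−1.30 and −1.29). Cxcl1 stood at 749 CPM in members and 2043 in retained barcodes of 4T1P and at 597 and 1756 in 4T1M. Without thinning, it had a UMI in 45.7% of members and 44.3% of retained barcodes in 4T1P and in 36.7% and 37.9% in 4T1M. For Fabp5, S100a10 and S100a4 this share was lower in members in both libraries. Within neutrophil-like barcodes neither Fabp5 (−0.79 and −0.05) nor Cxcl1 (−0.49 and −1.08) kept that size in both libraries. The sign turned for S100a10 (0.35 and 0.17) and S100a4 (1.49 and 1.23). These 2 ratios rest on 15 and 20 member UMIs for S100a10 and on 17 and 17 for S100a4.

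The neutrophil-like class was also compared on its own, since it was the only named class with at least 50 members in each library. Here the members had 1061.5 and 685 mitochondrial UMIs at the median, against 85 and 50.5 in retained neutrophil-like barcodes. Their other UMIs were at 3001 against 2804.5 in 4T1P and 2521 against 2668.5 in 4T1M, and they had 1002 and 925 detected genes against 938 and 908.5. Other UMIs were higher in members in 4T1P and lower in 4T1M, and the limits on genes and on the mitochondrial percentage bear on both measures. S100a8 was found in 92.9% and 93.1% of these members after thinning and S100a9 in 97.4% and 97.4%, while C1qa was in 3.90% and 6.44%. The class joins 6 clusters whose mix was not the same in both groups. The cluster led by Camp and Ngp held 20 of the 154 neutrophil-like members and 132 of all 886 neutrophil-like barcodes in 4T1P. In 4T1M it held 20 of 233 and 303 of 2435.

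Medians of the ribosomal protein, respiratory chain, abundant cytosolic and nuclear-retained lists were smaller in size here than over all barcodes. In 4T1M the shares of genes past 2-fold were larger here than over all barcodes. Of 7699 genes compared in 4T1P, 515 (6.69%) were higher and 482 (6.26%) lower. Of 9909 in 4T1M, 927 (9.36%) were higher and 741 (7.48%) lower. In both, 81 (1.05% of 7680) were higher and 68 (0.885%) lower. The all-gene median was 0.09 and 0.12, and 37.6% of the 7680 genes had ratios above 0 in both libraries and 20.9% below 0 in both. Ribosomal protein genes had medians of 0.02 and 0.10, respiratory chain genes −0.08 and −0.05, abundant cytosolic mRNAs 0.02 and −0.03 and nuclear-retained RNAs 0.13 and 0.40, while Malat1 had 0.07 and 0.18. The value of 0.02 for ribosomal protein genes was below 0 with TMM or DESeq2 scaling, and that of 0.13 for nuclear-retained RNAs was −0.04 with equal barcode weights.

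Of the 3 rRNA-overlapping features, 2 were past 2-fold here in both libraries, and AY036118 had ratios of 0.30 and 0.41. Gm26917 was at 192 CPM in neutrophil-like members and 16.9 in retained neutrophil-like barcodes of 4T1P and at 207 and 28.8 in 4T1M, ratios of 3.50 and 2.85, with 35.2% and 46.8% of its 108 and 156 member UMIs in 5 barcodes. Gm20594 was at 313 and 86.5 and at 290 and 85.0, ratios of 1.85 and 1.77. Gm42418 was at 21768 and 5478 and at 13654 and 5605 (1.99 and 1.28), with 50.9% and 30.7% of the members' UMIs in 5 barcodes; the median barcode had 0.873% and 0.726% of its non-mitochondrial UMIs on rRNA-overlapping features against 0.325% and 0.376%. Fn1, fibronectin, which macrophages make, was the remaining abundant gene past 2-fold (1.73 and 1.62), with 61.5% and 35.0% of the members' UMIs in 5 barcodes. The macrophage list had medians of 0.56 and 0.88 in this class, and 0.10 and 0.12 among barcodes of 500 to 2000 non-mitochondrial UMIs. The part of doublets in those values was not tested.

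Granule genes of immature neutrophils were lower in neutrophil-like members. All 6 had ratios below 0 in both libraries and 5 were past 2-fold in both, with medians of −1.22 and −2.49. Ltf, lactoferrin, had −1.53 and −2.39 and Ngp, a granule protein, −1.40 and −2.58. Camp, the cathelicidin of secondary granules, was at 1243 CPM in members and 3354 in retained barcodes of 4T1P and at 135 and 1689 in 4T1M. These genes are made by few cells, and 5 barcodes held 99.3% and 96.1% of the members' Camp UMIs. Over all classes and without thinning, Camp had a UMI in 4.05% of members and 3.59% of retained barcodes in 4T1P. In 4T1M these shares were 2.33% and 4.59%. Among barcodes of 500 to 2000 non-mitochondrial UMIs the median of 4T1P was 0.35. The part that the smaller share of the Camp and Ngp cluster had in these values was not tested. Beyond the granule list, Ly6g, the neutrophil surface antigen that the GR1 antibody binds, had −1.38 and −1.61, with 79.4% and 56.9% of its 63 and 51 member UMIs in 5 barcodes. Anxa1, an inflammation-resolving annexin, had −1.02 and −1.26, with 49.7% and 32.6% in 5 barcodes.

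Of the stress lists, heat shock genes had medians of 0.35 and 0.10 in the class, with 7 of 10 above 0 in both, and immediate early genes 0.21 and 0.12, with 8 of 14. The integrated stress list had 0.09 and 0.18, oxidative stress 0.23 and 0.12, and p53 and apoptosis 0.32 and 0.05. Beside the class's all-gene median of 0.09 and 0.12, every one of these 5 lists was above or level with it in 4T1P, and in 4T1M the integrated stress list stood above it, 2 lists were level with it and the heat shock and p53 lists were below it. Interferon-stimulated genes had 0.40 and 0.17, with 8 of 13 above 0 in both.

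**Figure D4:**
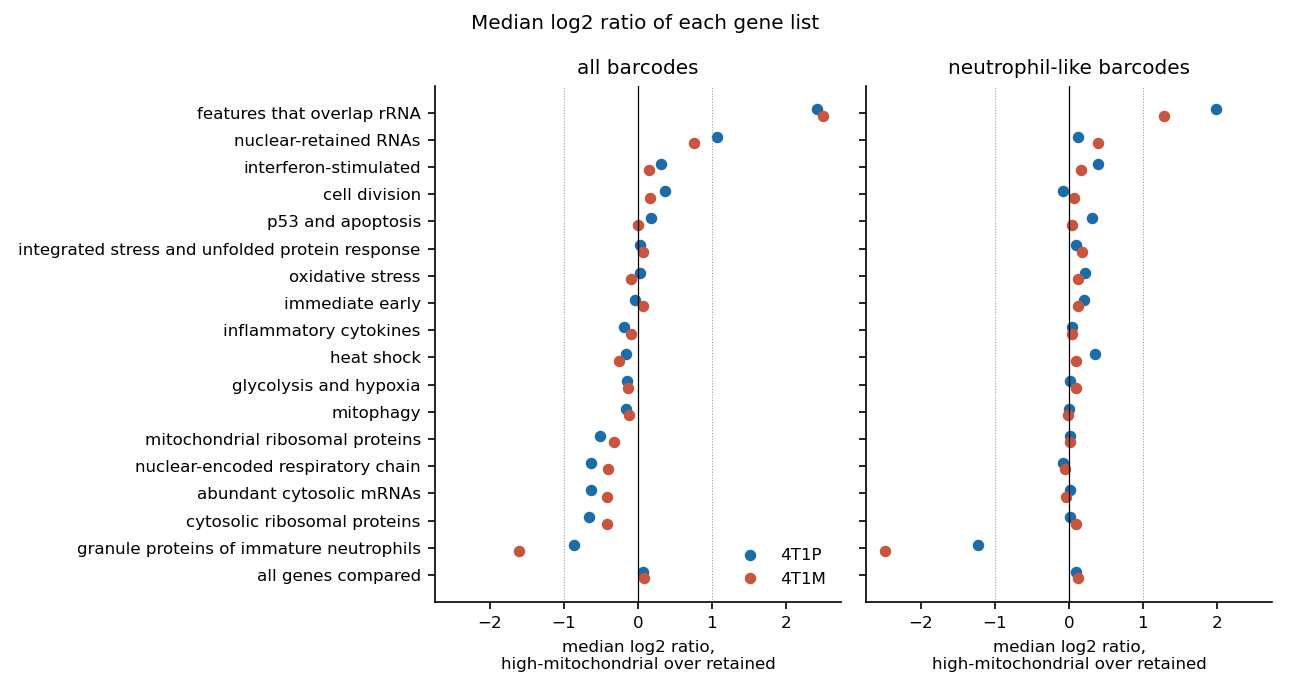
Median log2 ratio of high-mitochondrial over retained barcodes in 18 rows, the last for all genes compared and the others for gene lists. Values are over all barcodes (left) and within neutrophil-like barcodes (right), with 1 point per library and dotted lines at 2-fold. rRNA-overlapping features lie past 2-fold in both panels; ribosomal protein and respiratory chain genes lie below 0 on the left and near 0 on the right, and granule genes lie lowest on the right.

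The ratio also followed transcript length. Protein-coding genes with at least 100 UMIs were placed in 6 bins by their longest annotated transcript, and the bins were chosen after the values had been seen. In 4T1P the 162 genes of up to 750 bases had a median ratio of −0.58, and the medians of the longer bins were −0.51, −0.25, −0.03, 0.14 and, for the 1222 genes above 6000 bases, 0.32. In 4T1M they were −0.37, −0.34, −0.19, −0.01, 0.13 and 0.26. Of the shortest genes 14.8% and 12.5% had a ratio above 0, and of the longest 79.5% and 76.9%. Spearman's rho across 7783 and 8255 genes, which share libraries and are not independent, was 0.50 and 0.44, and 0.49 and 0.42 without ribosomal protein and respiratory chain genes. Without the rRNA-led members it was 0.36 and 0.26, and within neutrophil-like barcodes 0.27 and 0.22, where the bins went from −0.09 to 0.17 in 4T1P and from −0.09 to 0.15 in 4T1M. Long noncoding RNAs of at least 100 UMIs had a median of 0.51 (138 genes) and 0.34 (236 genes), against −0.02 and −0.01 for protein-coding genes. Within neutrophil-like barcodes they had 0.06 and 0.11, against 0.06 and 0.06. The bins and rho cover protein-coding genes only, so noncoding status does not vary within them. The length of the long noncoding RNAs and the nuclear location of either group were not compared, and their separate parts were not tested.

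**Figure D5:**
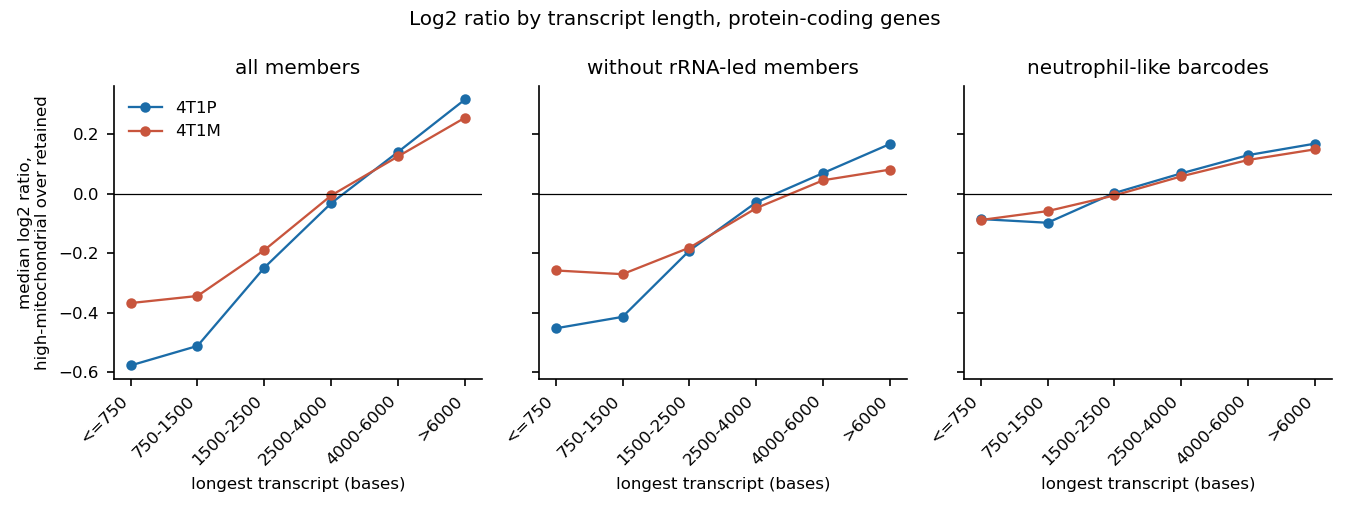
Median log2 ratio of high-mitochondrial over retained barcodes in 6 bins of longest annotated transcript for 4T1P and 4T1M, over all members, without members of the rRNA-led cluster and within neutrophil-like barcodes. Over all members the medians go from −0.58 and −0.37 in the shortest bin to 0.32 and 0.26 in the longest, with a flatter course in the other panels.

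Between the tumor lines, the members were compared in the same way as the retained barcodes, and whether the paired values below differ was not tested. As log2 ratios of 4T1M over 4T1P, interferon-stimulated genes had a median of 0.65 in members, with 12 of 13 above 0, and 0.98 in retained barcodes, also with 12 of 13. Within neutrophil-like barcodes these medians were 0.64 and 0.76. Inflammatory cytokine genes had 0.68 in members and 0.56 in retained barcodes, with 10 of 10 above 0 in each. The neutrophil marker list had 0.30 (8 of 12) and 0.57 (12 of 12). Within neutrophil-like barcodes its sign turned, at −0.28 (3 of 12) and −0.26 (2 of 12). Ribosomal protein genes had −0.08 in members, with 27 of 84 above 0, and −0.33 in retained barcodes, with 4 of 84. Nuclear-retained RNAs had opposite signs, at −0.16 in members and 0.26 in retained barcodes. So did epithelial markers (−1.11 and 0.87), T or NK cell markers (0.26 and −0.61) and dendritic cell markers (1.67 and −0.22, 3 genes). Oxidative stress genes (−0.07 and 0.26), glycolysis and hypoxia genes (0.01 and −0.04) and granule genes (−0.83 and 0.03) did as well. Within neutrophil-like barcodes, 5 granule genes had −1.97 and −0.79. In 4T1P, 1 member barcode held 556 of the members' 707 Camp UMIs, and the highest for Ngp held 481 of 855. The 4T1M members had 104 Camp UMIs in all. The all-gene medians were −0.13 and −0.19 over all barcodes and 0.06 and 0.07 within neutrophil-like ones.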

How the data were processed

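GR1+ cells were profiled in droplets (10x Genomics). The deposited matrices hold the authors' UMI counts per gene and barcode, made with Cell Ranger 4.0.0 on mm10 per the labels; the study's methods name a later version of Cell Ranger. Coordinates are from GENCODE on GRCm38. Barcodes with 500 to 5000 genes were split at 10% mitochondrial UMIs. They were clustered without mitochondrial genes (Seurat 5.3.0, sctransform 0.4.2, 3000 features, 25 components, 20 neighbors, resolution 0.75). Unlike in the study's methods, the mitochondrial percentage was not regressed out, since it defines the members. A cluster took the name of the marker list it matched best if 10% or more of its barcodes had a UMI for each of 3 or more markers and its 10 leading genes did not hold more markers of another list, or more stromal genes, than of its own. This scoring was set after the data had been seen. No doublet caller was run and no doublets were removed. A difference from the study may come from these rebuilt names.

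UMIs were summed per library and group, 0.5 UMIs were added to each sum, and genes with at least 10 UMIs in the 2 sums together were compared (Python 3.11.15, numpy 2.4.6, scipy 1.17.1). List medians are given for at least 3 compared genes, a minimum set after the data had been seen. Named genes are the 11 marker and mitochondrial genes of interest, members of the lists, and the 10 highest and 10 lowest genes of at least 100 CPM and past 2-fold in both libraries (5 and 5 in a class). Intervals are 95% exact binomial or exact Poisson and cover counting error only. Scaling (edgeR 4.0.16 TMM factors, DESeq2 1.42.0 size factors, without their tests), filter, depth, limit and clustering alternatives were run, and 2 were added after seeing the data (rRNA features out of the total, rRNA-led members out). The members and lists were chosen with earlier results of these data known.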

Additional observations from a re-analysis of the deposited data

Results flagged for a closer look

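The dendritic cell marker list had medians of opposite sign in the 2 libraries. The median log2 ratio of high-mitochondrial over retained barcodes over 7 genes was −0.90 in 4T1P and 0.71 in 4T1M, and the difference was not tested. Clec9a and Siglech had 0 UMIs in the 4T1P members. With those 2 genes set to a floor of 3 UMIs the 4T1P median was 0.51, which is only an upper bound. Of the 7 genes, 4 had the same sign in both libraries. In 4T1M, 94.6% of the 37 member UMIs of Siglech lay in 5 barcodes.

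Barcodes outside the gene range were used in no comparison, but those with under 500 genes and more than 10% mitochondrial UMIs carried a strong signal of rRNA-overlapping features. It was 186931 CPM of non-mitochondrial UMIs in the 352 such barcodes of 4T1P, with a median mitochondrial percentage of 88.6%, and 162131 CPM in the 430 of 4T1M, with a median of 81.1%. Barcodes of under 500 genes and at most 10% had 45349 CPM (313 barcodes) and 24576 CPM (592 barcodes).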

How the results depend on the processing

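The choice of limit set the member share, which was 46.6% in 4T1P and 30.1% in 4T1M at 5%, 13.9% and 7.83% at 15%, and 11.4% and 5.44% at 20%. It was 22.4% and 14.6% from 200 genes on and 9.99% in 4T1M from 1000 genes on. The rRNA-led cluster took 42.1% and 37.7% of members at 15% and 46.1% and 42.1% at 20%, and in 4T1P 30.5% with the mitochondrial percentage regressed out and 29.8% with Leiden clustering. The neutrophil-like share of 4T1M members was 43.9% at 20%. In 4T1P it was 39.5% at 15% and 39.6% at 20%, below that of the rRNA-led cluster. The macrophage-like share of members, without that cluster, was 9.70% and 4.22% at 15%, 6.94% and 3.27% at 20%, and 22.1% and 13.8% at resolution 1.2, but 53.3% and 40.04% with Leiden clustering, where the direction turned. That of retained barcodes was 29.5% and 19.6% at resolution 0.3, 44.1% and 27.4% at 1.2, 20.1% and 13.9% when they were clustered alone, 37.2% in 4T1P with the regression and 23.9% in 4T1M with Leiden clustering. Counts of genes past 2-fold in both libraries were 359 higher and 129 lower over all barcodes and 81 and 68 within neutrophil-like barcodes. With CPM over all UMIs they were 164, 372, 29 and 171. That scaling moves the all-gene median by −0.33 and −0.30 over all barcodes and by −0.41 and −0.35 within neutrophil-like ones. They were 73, 64, 7 and 17 with at least 50 UMIs, and 811, 617, 181 and 119 at 20%. At 15% they were 624 and 542 over all barcodes and 107 lower in neutrophil-like ones. Without a filter they were 2134 higher overall and 746 and 134 in neutrophil-like barcodes. Among barcodes of 500 to 2000 UMIs they were 692 higher overall and 23 and 42 in neutrophil-like ones. With equal barcode weights 862 were higher, and with 1 UMI added 60 and 40 were lower. The rRNA-led members left out gave 312 and 163. Among list medians past 2-fold, the sign turned for fibroblast markers in 4T1P (0.70 with equal weights, 0.33 unfiltered), mast cell markers in 4T1M (0.56 unfiltered, 0.24 at 20%) and granule genes in neutrophil-like barcodes of 4T1P (0.35 at 500 to 2000 UMIs). The cause was not tested. TMM, DESeq2 factors and the total without rRNA features moved none of 99 list medians by more than 0.25. Each of these scalings, like CPM over all UMIs, shifts every ratio of a library and comparison by 1 constant. The 99 medians are therefore not separate checks of them. CPM over all UMIs moved all 99, and medians above 0 by less than the shift given above lie below 0 there. Limits of 15% and 20% moved 37 and 40, the range of 500 to 2000 UMIs 39 and equal barcode weights 28. Thinning to 1000 UMIs moved 22 of 32 marker shares. With 1 library in each tumor line, no test between the lines was possible. Members and retained barcodes were compared within each library, and no paired test over the 2 libraries was run. Low counts limit the markers of rare cell types.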
